A study of Caenorhabditis elegans with 6 samples.

Results

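Messenger RNA levels of 8 genes for enzymes that hydroxylate, cut and crosslink collagen were followed in whole Caenorhabditis elegans. The genes were dpy-18, phy-2, pdi-2, let-268, bli-4, dpy-31, bli-3 and mlt-7, found by their symbols, and they were 8 of the 20189 genes in the count table. The list was selected on the same CHX and no_CHX counts that are described here. Differences of its genes between the groups are therefore a description, given with no test. Their standard errors and intervals describe the spread of the estimates and do not allow for that selection. Whether such an interval includes no change is not read as a result. All animals were L4 hermaphrodites, in the last larval stage, and carried rpl-36A(P55Q), an amino acid change in the ribosomal protein RPL-36A, as heterozygotes over the chromosome II balancer mIn1. The 3 CHX samples came from eggs placed on plates with 500 µg/ml cycloheximide, a blocker of translation elongation, and collected after 3 days at 23 °C. The 3 no_CHX samples came from eggs on plates without the drug, collected after 2 days at 23 °C. Drug and age therefore cannot be told apart. The sample titles give L4 without a position within that stage, so the groups are not known to be matched for it. The question is how transcripts differ in such heterozygotes, which the series title ties to cycloheximide-resistant ribosomes, when they reach L4 on the drug.

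The nematode cuticle is built largely of collagens that the epidermis makes anew for each molt. In the endoplasmic reticulum, prolyl 4-hydroxylase, a complex of catalytic alpha subunits (DPY-18 and PHY-2) with a protein disulfide isomerase as beta subunit (PDI-2), hydroxylates prolines and so stabilises the collagen triple helix. LET-268, a lysyl hydroxylase, acts on type IV collagen of basement membranes. The proprotein convertase BLI-4 and the astacin metalloprotease DPY-31 cut procollagen ends, at the N-terminal and the C-terminal side. Outside the cell, the dual oxidase BLI-3 makes hydrogen peroxide with which peroxidases such as MLT-7 crosslink tyrosines of cuticle proteins. Loss of several of these genes gives dumpy, blistered or molting-defective animals.

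Libraries were shallow, with 313767 to 414781 counts each, and 5641 genes had enough counts to be tested. By edgeR's quasi-likelihood F-test at a Benjamini-Hochberg adjusted p of 0.05, 1419 of these, or 25.2%, differed, with 579 higher in CHX samples and 840 lower. Scaling by library totals alone gave 851 higher against 605 lower calls and put the middle of all log2 fold changes at 0.18 instead of 0.02. On simulated counts of 5641 genes the test found 37.1% of the genes changed 2-fold and 6.45% of those changed 1.5-fold, so a gene without a call is not shown to be unchanged. Only 200 genes were changed in the simulation, against 1419 called here, which makes its adjusted threshold stricter. These rates may therefore be lower than in the real data. Labels do not say that replicates were separate cultures, so a p-value covers the spread of these 6 libraries, which could be technical. In whole animals, fewer cells of a type and less RNA per cell cannot be told apart.

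Scaled to coding length, the 8 genes spanned a wide range, and their order was the same in both groups. Levels below are CPM, counts scaled to 1e6 of a library's effective size, and CPM per kb of coding sequence where genes are compared. Highest was pdi-2, with 561 ± 30.1 CPM per kb in CHX samples and 828 ± 98.0 in no_CHX samples (SD, n = 3 each). It was followed by dpy-18, with 103 ± 1.83 CPM per kb in CHX samples and 351 ± 60.9 in no_CHX samples. The convertase gene bli-4 stood at 84.1 ± 7.02 and 103 ± 7.30 CPM per kb in CHX and no_CHX samples, and the peroxidase gene mlt-7 at 61.6 ± 24.9 and 87.0 ± 12.4. Of the alpha subunit genes phy-2 was the lower, at 35.6 ± 13.2 CPM per kb in CHX samples and 56.0 ± 8.92 in no_CHX samples. The last were let-268 (mean 15.02 in CHX samples, spanning 13.1 to 16.6, and mean 20.8 in no_CHX samples, spanning 8.98 to 30.8), dpy-31 (13.4 ± 3.71 and 13.1 ± 5.42) and bli-3 (7.49 ± 1.09 and 9.87 ± 4.26). In CHX samples the single values of bli-4 overlapped those of mlt-7, those of mlt-7 overlapped phy-2, and those of let-268 overlapped dpy-31. In no_CHX samples let-268 overlapped dpy-31 and dpy-31 overlapped bli-3, and the other neighbours in the order did not overlap. Among the 5066 tested genes with a coding length, pdi-2 ranked 180th, dpy-18 527th and bli-3 5030th by mean CPM per kb over the 6 samples.

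**Figure D1:**
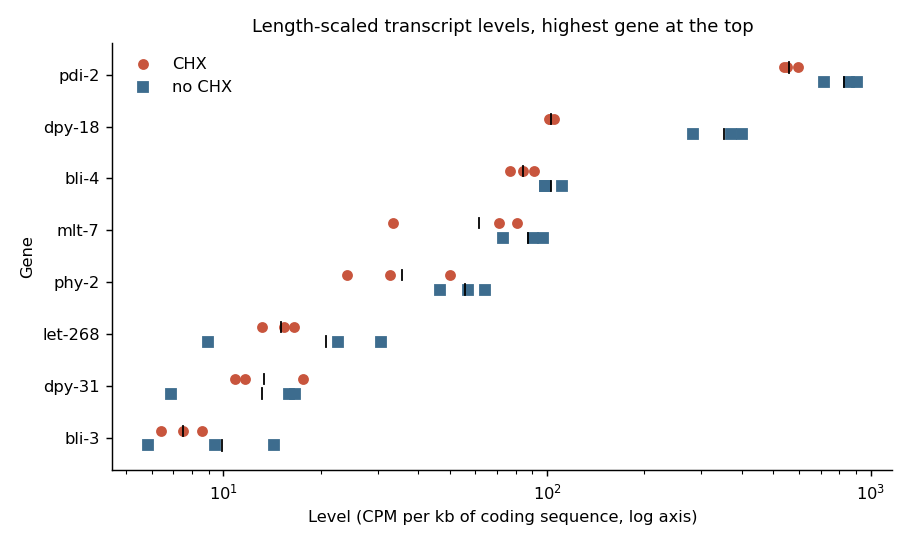
Level of each gene in CPM per kb of coding sequence on a log axis, highest at the top, with 1 point per sample (circles above, CHX; squares below, no_CHX) and a tick at each group mean. The order of the means is the same in both groups, from pdi-2 (561 in CHX and 828 in no_CHX samples) to bli-3 (7.49 and 9.87), and the groups lie farthest apart for dpy-18.

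Among the prolyl 4-hydroxylase genes, dpy-18 differed most between the groups. It lies on chromosome III at 11372886 to 11377980 (WBcel235, minus strand, 7 exons, 1677 bp of coding sequence). Its level was 169.7, 171 and 176 CPM in the CHX samples, against 619.6, 475 and 672 CPM in the no_CHX samples. The groups did not overlap, and the lowest no_CHX sample stood far above every CHX sample. The fitted log2 fold change of CHX over no_CHX was -1.77 (SE 0.19; 95% interval -2.16 to -1.38), which is 3.41-fold lower in CHX samples, from 204 counts in CHX and 534 in no_CHX samples. By this value dpy-18 stood 124th from the lowest among the 5641 tested genes. Its coefficient of variation was 1.78% among CHX samples and 17.3% among no_CHX samples, where counting error alone would give 12.1% and 7.50% on average.

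The other alpha subunit gene, phy-2, lies on chromosome IV at 12211098 to 12215987 (minus strand, 11 exons, 1617 bp of coding sequence). It had 81.0, 38.9 and 52.9 CPM in the CHX samples, against 75.4, 104.1 and 91.9 CPM in the no_CHX samples. CHX replicate 1 lay above no_CHX replicate 1, so the groups overlapped. Its log2 fold change was -0.65 (SE 0.35; 95% interval -1.37 to 0.06), so the size of the difference is loosely set. In C. elegans the alpha subunit genes are partly redundant, and loss of dpy-18 alone gives dumpy animals.

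The beta subunit gene pdi-2, whose product is also a general disulfide isomerase, lies on chromosome X at 4524155 to 4526536 (plus strand, 4 exons, 1479 bp). Its level was 880.1, 796 and 813 CPM in the CHX samples, against 1062, 1341 and 1269 CPM in the no_CHX samples. The groups did not overlap, and the gap between them was smaller than for dpy-18. The log2 fold change was -0.56 (SE 0.14; 95% interval -0.84 to -0.28), or 1.48-fold lower in CHX samples.

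**Figure D2:**
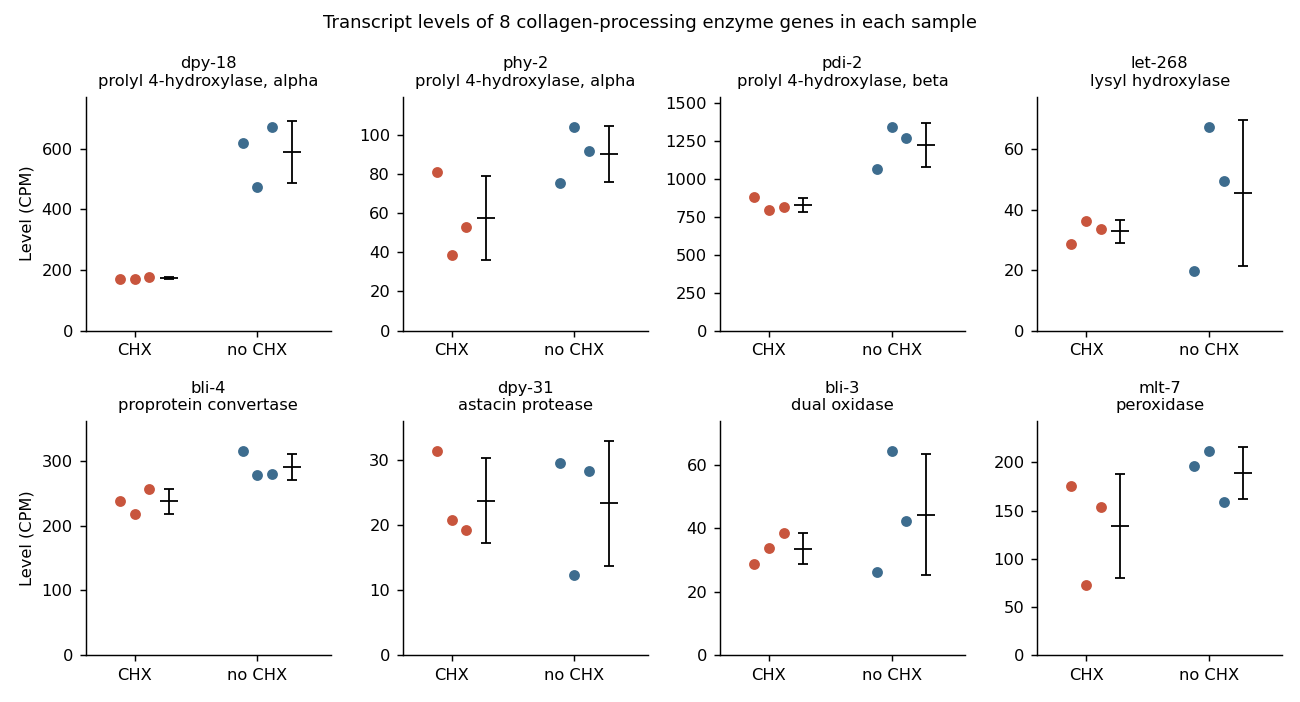
Level in CPM (linear axes from 0, a scale per gene) of the 8 enzyme genes in each CHX sample (left) and no_CHX sample (right), with the group mean and SD as a bar. The groups are apart for dpy-18, pdi-2 and bli-4 and overlap for the other 5 genes. Those of bli-4 overlap when scaled by library totals alone.

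Proportions among these transcripts differed with dpy-18. In CPM per kb, dpy-18 stood 2.02, 4.24 and 3.20 times as high as phy-2 in the CHX samples, against 7.92, 4.396 and 7.05 times in the no_CHX samples. CHX replicate 2 and no_CHX replicate 2 lay close together, with 15 counts of phy-2 in the first and 34 in the second. As a share of both alpha subunit transcripts per kb, dpy-18 made up 74.7% ± 7.13 in CHX samples and 85.9% ± 3.93 in no_CHX samples (SD, n = 3 each). Transcripts of pdi-2 outnumbered those of both alpha subunit genes together by 4.07 ± 0.18 to 1 in CHX samples and by 2.07 ± 0.47 to 1 in no_CHX samples, per kb. Since PDI-2 also serves other proteins, this ratio does not count prolyl 4-hydroxylase complexes. Of all counts of the 8 genes, dpy-18 took 11.4% ± 0.97 in CHX samples and 23.6% ± 4.39 in no_CHX samples.

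**Figure D3:**
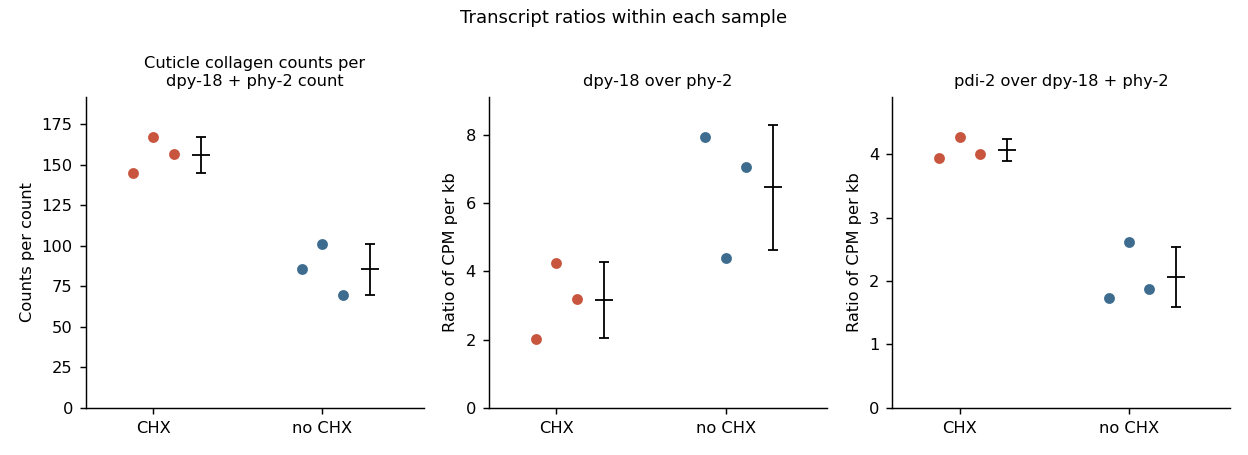
Ratios within each CHX sample (left) and no_CHX sample (right), with group mean and SD: cuticle collagen counts per count of dpy-18 plus phy-2, dpy-18 over phy-2, and pdi-2 over dpy-18 plus phy-2 (the last pair in CPM per kb). Collagen counts per alpha subunit count lie between 145 and 167 in CHX samples and between 69.8 and 102 in no_CHX samples.

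The lysyl hydroxylase gene let-268 (chromosome II, 10033309 to 10039980, minus strand, 10 exons, 2190 bp of coding sequence) was thinly counted. It had 11, 14 and 14 counts in the CHX samples, against 6, 22 and 14 counts in the no_CHX samples. In CPM these were 28.7, 36.3 and 33.7 in CHX samples and 19.7, 67.4 and 49.5 in no_CHX samples, so all CHX values lay within the no_CHX range. The log2 fold change was -0.47 (SE 0.48; 95% interval -1.45 to 0.51), so the size of the difference is loosely set at this depth. The gene lies on the chromosome that mIn1 balances, as does mlt-7, and counts per gene do not separate the copies of a heterozygote.

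Of the procollagen proteases, bli-4 was the better measured. It lies on chromosome I at 6342231 to 6356678 (plus strand). Reads were counted over 1 coding sequence of 2826 bp in 18 exons, while the annotation lists 11 coding transcripts, so its isoforms are not told apart here. Its level was 238, 218 and 257 CPM in the CHX samples, against 315, 279 and 279 CPM in the no_CHX samples. The groups did not overlap at this scaling, with a small gap. Divided by library totals alone they overlapped, since 107 counts of 414781 in CHX replicate 3 exceed 79 of 313767 in no_CHX replicate 3. The log2 fold change was -0.29 (SE 0.19; 95% interval -0.69 to 0.11), the smallest among the 7 of these genes in the fit.

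The C-terminal procollagen protease gene dpy-31 (chromosome III, 7202661 to 7207664, plus strand, 8 exons, 1776 bp) had too few counts for the test. It had 12, 8 and 8 counts in the CHX samples, against 9, 4 and 8 counts in the no_CHX samples. Scaled to effective library size the ratio of the summed counts, 28 over 21, was 1.03, with an exact 95% counting interval from 0.56 to 1.91. At this depth the counts do not tell apart ratios within that interval, and the interval covers counting error only.

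For the crosslinking enzymes, bli-3 (chromosome I, 146486 to 154850, minus strand, 19 exons, 4491 bp) is the dual oxidase that supplies peroxide. It stood at 28.7, 33.7 and 38.5 CPM in the CHX samples, against 26.2, 64.3 and 42.4 CPM in the no_CHX samples. All CHX values lay within the no_CHX range, and the log2 fold change was -0.40 (SE 0.47; 95% interval -1.35 to 0.55). The peroxidase gene mlt-7 (chromosome II, 4392800 to 4404850, plus strand, 9 exons, 2172 bp) stood at 175, 72.6 and 154 CPM in the CHX samples, against 197, 211 and 159 CPM in the no_CHX samples. CHX replicate 1 lay above no_CHX replicate 3, and CHX replicate 2 was lowest of all. The log2 fold change of mlt-7 was -0.50 (SE 0.27; 95% interval -1.05 to 0.06), and it was -0.19 without CHX replicate 2. The same library was the lowest for phy-2, whose log2 fold change was -0.43 without it.

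Taking the 8 genes as a list, the 7 in the fit all had log2 fold changes below 0, with a median of -0.50, beside a median of 0.02 for all tested genes, of which 49.2% were below 0. Groups that did not overlap, with CHX lower, were seen for 3 of the 7 (dpy-18, pdi-2 and bli-4), beside 20.2% of all tested genes (39.7% in either direction). For bli-4 this depended on the scaling, since its groups overlapped with library totals alone. Nothing is read from these shares, because the list was drawn up with this comparison known. The 8 genes together held 0.151% ± 0.013 of counts in CHX samples and 0.223% ± 0.017 in no_CHX samples (SD, n = 3 each). They lie on chromosomes I, II, III, IV and X. The annotation places another protein-coding gene over part of bli-4 and of bli-3, each on the opposite strand and at one end, and none over the other 6. The use of strand in counting is not stated, so reads in these overlaps cannot be told apart.

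Over the 6 samples the genes whose log2 level followed that of dpy-18 most closely were faah-2, asp-3 and msrp-2 (Pearson r 0.9998, 0.999 and 0.997). For pdi-2 they were col-49, T05A7.6 and the collagen gene bli-6 (r 0.995, 0.988 and 0.987), and for bli-4 cri-3, R10D12.1 and the collagen gene col-13 (r 0.999, 0.999 and 0.996). For phy-2 they were rskn-2, C17H12.3 and F56C9.7 (r 0.998, 0.995 and 0.989), and for mlt-7 C34F6.10, Y42H9AR.1 and chch-3 (r 0.983, 0.98 and 0.974). For let-268 they were tomm-70, cka-1 and F35E12.10 (r 0.985, 0.977 and 0.976), and for bli-3 Y37D8A.2, F19F10.9 and ugt-64 (r 0.9754, 0.9752 and 0.9735). With 5636 genes compared over 6 libraries that share depth and the group difference, many genes reach high values. The 99th percentile of r was 0.974 for dpy-18 and 0.854 for bli-3. The profiles of let-268 and bli-3 rest on 6 to 22 counts per library and hold much counting error. In CHX samples it would give an average coefficient of variation of 27.7% and 27.4%.

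Of the other genes of the pathway, 71 were in the table and 27 were tested, of which 6 were lower and 1 higher in CHX samples, beside 14.9% lower and 10.3% higher among all tested genes. Their median log2 fold change was -0.36. These genes, and the groups of them described below, were listed with earlier results of these data known. Their calls are a description and do not allow for that choice. Leaving out CHX replicate 1, 2 or 3 brought the number called to 4, 3 and 2 in this order, library totals to 4 (2 higher), and no low-count filter to 3. Of 8 other hydroxylase and disulfide isomerase genes 6 were tested and 1 fell, or 2 without no_CHX replicate 1. This was pdi-6, a disulfide isomerase gene, with 371, 345 and 243 CPM in the CHX samples, against 564, 496 and 629 CPM in the no_CHX samples (log2 fold change -0.82, SE 0.18, edgeR adjusted p 0.00124). It passed under all 11 alternatives run for it. The most abundant of them, pdi-3, averaged 627 ± 86.3 CPM in CHX samples and 796 ± 135 in no_CHX samples, with overlapping groups (log2 fold change -0.35, edgeR adjusted p 0.106). Of the remaining prolyl 4-hydroxylase alpha subunit genes, phy-3, which acts in eggshell formation, had 7 counts in CHX and 10 in no_CHX samples, and phy-4 had 0 in every sample, a floor of 7.22 to 10.6 CPM per library at 3 counts.

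Of 14 genes for folding and secretion in the endoplasmic reticulum, 12 were tested and 4 fell, and 0 rose, beside 14.9% lower and 10.3% higher among all tested genes. The number that fell was 2 without CHX replicate 1, and 1 without CHX replicate 2, without CHX replicate 3, with library totals or with no low-count filter. In addition, 1 gene rose with library totals and 1 without no_CHX replicate 1. The largest of these changes was in fkb-3, for a prolyl isomerase of the FK506-binding family. It had 49.6, 15.6 and 19.2 CPM in the CHX samples, against 111, 126 and 166 CPM in the no_CHX samples. The groups did not overlap, and the log2 fold change was -2.25 (SE 0.39, edgeR adjusted p 6.82e-05), or -2.91 without CHX replicate 1. The chaperone gene hsp-3, for a BiP-type protein with a close paralog, averaged 1680 ± 145 CPM in CHX samples and 2210 ± 147 in no_CHX samples (log2 fold change -0.40, SE 0.12, edgeR adjusted p 0.0128). The hsp-3 call was lost when CHX replicate 2 (0.083), CHX replicate 3 (0.112) or no_CHX replicate 3 (0.0589) was left out, and with library totals (0.123), edgeR adjusted p in each case. The COPII coat gene sec-24.1, for vesicles that leave the endoplasmic reticulum, averaged 305 ± 3.80 CPM in CHX samples and 437 ± 26.9 in no_CHX samples (log2 fold change -0.52, SE 0.17, edgeR adjusted p 0.0277). Without CHX replicate 1, 2 or 3 its edgeR adjusted p was 0.0783, 0.105 and 0.0984. The fourth, sec-23, of the same coat and named after its value was seen, had a log2 fold change of -0.54 (SE 0.18, edgeR adjusted p 0.0293). Its call was lost without CHX replicate 1 (0.0995), CHX replicate 2 (0.0887), CHX replicate 3 (0.0631) or no_CHX replicate 1 (0.242), edgeR adjusted p in each case.

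Of 39 other convertase and astacin genes only 4 had enough counts to be tested, and 0 passed. At an unadjusted p under 0.05 edgeR had 0 of these 4, and DESeq2 called 0 of 4 after adjustment. The count was not stable, since 3 of 9 tested were lower without no_CHX replicate 3 and 1 of 7 without no_CHX replicate 2. The most abundant was egl-3, a neuropeptide convertase gene, at 97.9 ± 1.12 CPM in CHX samples and 128 ± 28.5 in no_CHX samples (log2 fold change -0.39, SE 0.29). Of 36 other astacin genes, 1 was tested and 7 had 0 counts in every sample. Among 8 oxidase and peroxidase genes 4 were tested, with 1 higher and 1 lower, beside 14.9% lower and 10.3% higher among all tested genes. Without CHX replicate 3 or without no_CHX replicate 3, 0 of 4 were called. The peroxidase gene skpo-1 had 154, 119 and 129.9 CPM in the CHX samples, against 78.7, 88.8 and 21.2 CPM in the no_CHX samples. Its log2 fold change was 1.07 (SE 0.35, edgeR adjusted p 0.0241), and the call was lost when CHX replicate 1 (0.0865), CHX replicate 3 (0.0523) or no_CHX replicate 3 (0.136) was left out. The related gene skpo-2 had 41.8, 23.3 and 26.5 CPM in the CHX samples, against 88.5, 52.1 and 63.6 CPM in the no_CHX samples (log2 fold change -1.15, SE 0.43, edgeR adjusted p 0.048). Its call was lost without CHX replicate 2 (0.167), CHX replicate 3 (0.154), no_CHX replicate 1 (0.189) or no_CHX replicate 3 (0.0666), and with DESeq2 (0.0918). The most abundant, skpo-3, was at 104.4 ± 37.3 CPM in CHX samples and 116 ± 31.1 in no_CHX samples. Of BLI-3's partners, the tetraspanin gene tsp-15 had 1 count in CHX and 2 in no_CHX samples, and the maturation factor gene doxa-1 had 9 and 10. Of the protease inhibitor genes, mlt-11 averaged 211 ± 61.6 CPM in CHX samples and 219.7 ± 49.5 in no_CHX samples with no call, and bli-5 had 0 counts in CHX and 3 in no_CHX samples.

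**Figure D4:**
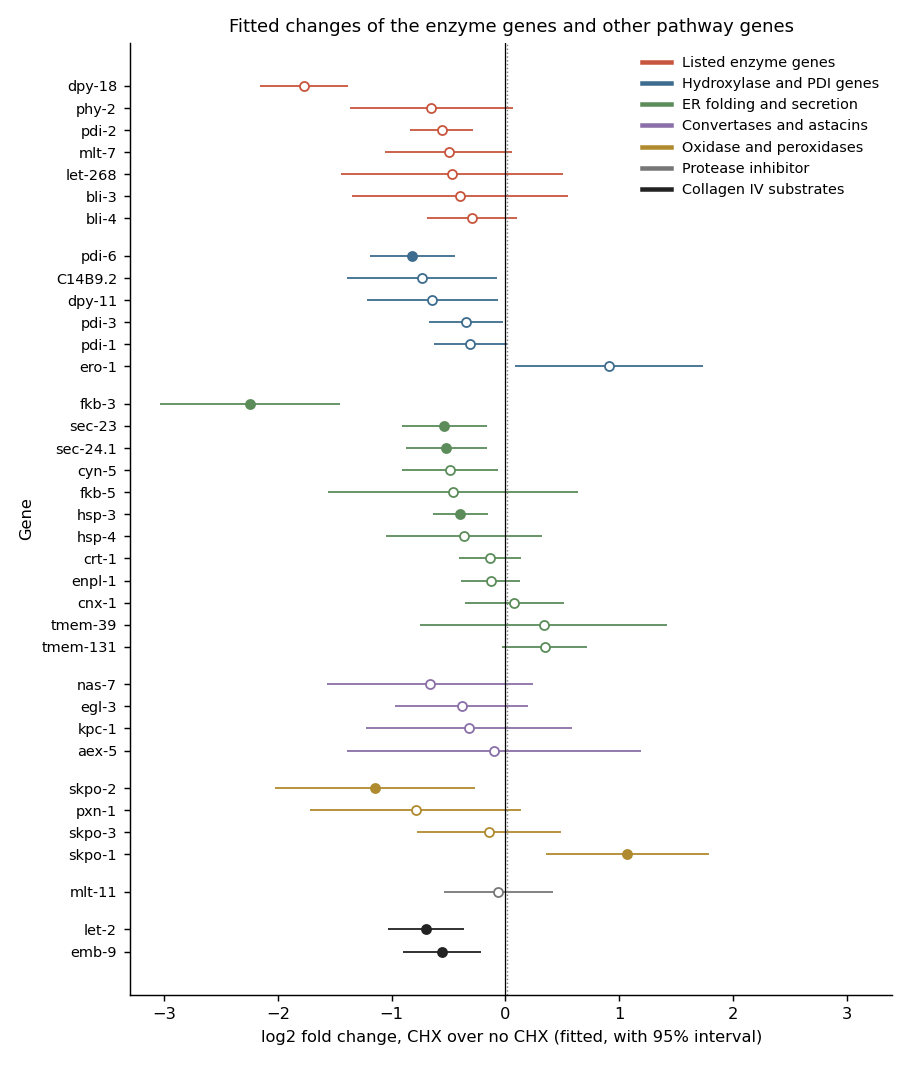
Fitted log2 fold change of CHX over no_CHX with its 95% interval for the 7 enzyme genes in the fit, the 27 tested pathway genes and the collagen IV genes; the dotted line is the median of all tested genes (0.02). Filled points passed the adjusted threshold, and the 7 enzyme genes are drawn hollow since no test is given for them; dpy-18 (-1.77) and fkb-3 (-2.25) lie farthest to the left.

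Many genes for substrates of these enzymes were lower in CHX samples. Of 177 cuticle collagen genes 94 were tested, with 54 lower and 8 higher and a median log2 fold change of -1.01, beside 14.9% lower and 10.3% higher among all tested genes. The collagen lists were also drawn up with earlier results of these data known, so their calls are a description and do not allow for that choice. Leaving out CHX replicate 2 gave 47 lower of 96 tested, leaving out CHX replicate 3 gave 45 of 94, leaving out no_CHX replicate 2 gave 47 of 95, and no low-count filter gave 54 of 139. Near-identical collagen copies may share reads. The most abundant, col-73, averaged 1105 ± 136 CPM in CHX samples and 2535 ± 21.9 in no_CHX samples (log2 fold change -1.20, SE 0.12, edgeR adjusted p 2.4e-08). The gene sqt-3, whose collagen is cut by DPY-31, had 345, 181 and 156 CPM in the CHX samples, against 482, 628 and 477 CPM in the no_CHX samples (log2 fold change -1.22, SE 0.22, edgeR adjusted p 1.28e-04). The collagen IV genes, whose products LET-268 modifies, both fell. For emb-9 the levels were 436 ± 56.0 CPM in CHX samples and 639 ± 103 in no_CHX samples (log2 fold change -0.56, SE 0.17, edgeR adjusted p 0.0149). The emb-9 call was lost without CHX replicate 3 (0.127) or no_CHX replicate 2 (0.0683), and with library totals (0.0731). For let-2 the levels were 443 ± 37.6 CPM in CHX samples and 716 ± 116 in no_CHX samples (log2 fold change -0.69, SE 0.16, edgeR adjusted p 0.00202).

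**Figure D5:**
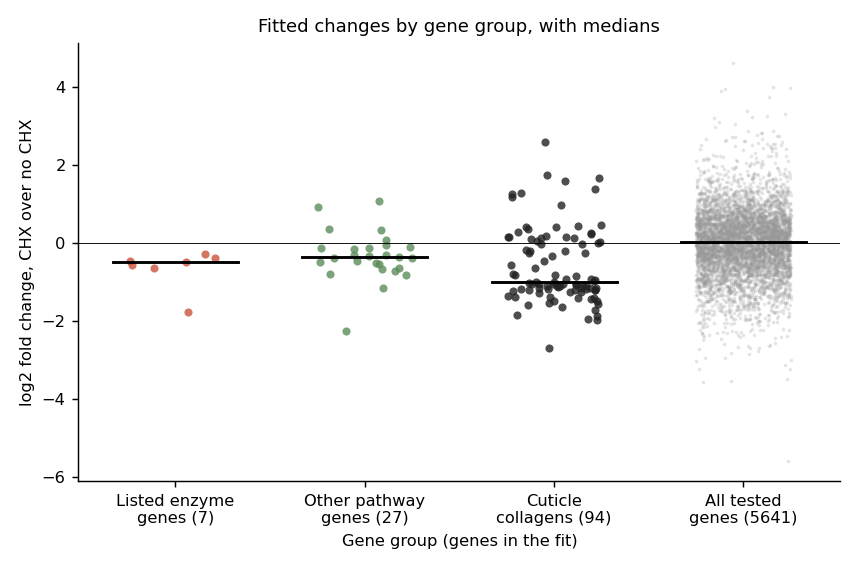
Fitted log2 fold change of CHX over no_CHX, 1 point per gene, for the 7 listed enzyme genes in the fit, 27 other pathway genes, 94 cuticle collagen genes and all 5641 tested genes, with a bar at each median. Medians are -0.50, -0.36, -1.01 and 0.02 in this order, and dpy-18 is the lowest of the listed enzyme genes.

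The number of cuticle collagen counts per prolyl 4-hydroxylase count was described for each subunit gene, and the ratio between the groups varied with the gene used. Cuticle collagens took 3.55% ± 0.080 of counts in CHX samples and 5.09% ± 0.26 in no_CHX samples (SD, n = 3 each). For each count of dpy-18 plus phy-2 there were 145, 167 and 157 cuticle collagen counts in the CHX samples, against 85.6, 102 and 69.8 in the no_CHX samples. The groups did not overlap, and the means, 156 ± 11.1 in CHX samples and 85.6 ± 15.9 in no_CHX samples, stood in a ratio of 1.82. This rested on dpy-18. Per count of dpy-18 alone there were 208 ± 5.56 collagen counts in CHX samples and 99.7 ± 22.4 in no_CHX samples, a ratio of 2.08. Per count of phy-2 there were 676 ± 227 in CHX samples and 644 ± 125 in no_CHX samples, a ratio of 1.05, and the groups overlapped. With only 15 to 31 counts of phy-2 in a CHX sample, this ratio is loosely set and does not show that collagens and phy-2 changed alike. Per count of pdi-2 there were 43.1 ± 1.604 in CHX samples and 47.3 ± 7.62 in no_CHX samples, a ratio of 0.913, again with overlapping groups. The median cuticle collagen gene, at a log2 fold change of -1.01, lay below each of the 7 fitted enzyme genes except dpy-18. That median counts every collagen gene alike, and the collagens summed differed less. Their summed level was 35087 to 36331 CPM in CHX samples and 53290 to 59472 CPM in no_CHX samples, and the ratios per count of phy-2 and pdi-2 above use such sums. No test is given, because the enzyme genes were listed with their differences known.

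Markers of several tissues also differed between the groups. For comparison, 14.9% of all tested genes were lower and 10.3% higher in CHX samples. Of 12 epidermis markers 6 were tested, with 3 lower (vab-10, let-805 and mup-4, for attachment structures between epidermis and muscle or cuticle) and 1 higher (lin-26, for an epidermal fate factor, a call lost without CHX replicate 3). The 2 without a call lay on both sides of 0, nhr-23 at a log2 fold change of 0.95 and ifb-1 at -0.31. The summed level of the 12 was 2319 to 2509 CPM in CHX samples and 4224 to 5176 CPM in no_CHX samples. None was at 0 in every sample. Most of that sum came from vab-10, let-805 and mup-4, so it does not stand for each epidermis marker. Levels of nhr-23 were 54.7 ± 4.68 CPM in CHX samples and 27.8 ± 12.9 in no_CHX samples. All 10 body wall muscle markers were lower, or 6 of 10 when CHX replicate 3 was left out or library totals were used, with summed levels of 8722 to 9339 CPM in CHX samples and 12026 to 17069 CPM in no_CHX samples. Of 11 germline and oocyte markers 9 were higher and 1 lower, with summed levels of 11741 to 12641 CPM in CHX samples and 4713 to 5546 CPM in no_CHX samples. Sperm markers went the other way, with 4 of 5 tested lower and summed levels of 314 to 436 CPM in CHX samples and 829 to 969 CPM in no_CHX samples. Of 7 intestine markers tested 5 were lower and 1 higher. Among the 4 pharynx and 2 neuron markers tested 0 were called. The marker lists too were drawn up with earlier results of these data known, so their calls are a description. The part of these differences in those of the 8 enzyme genes and of the collagens was not tested.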

How the data were processed

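The table deposited by the authors holds unnormalized read counts for 20189 genes and 6 samples, taken over the coding sequence of a single transcript per gene. Row names carry WBcel235 positions. Per the labels' protocols, Trizol was used for RNA extraction, RNase H for depletion of ribosomal RNA and a SMARTER kit for the libraries. The submitters' processing notes name DESeq2 without a version. For the aligner, counting program, strand setting and duplicates, nothing is given in the sources used here. Without molecular identifiers, counting intervals and floors cover counting error only.

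Groups and replicate numbers came from the sample titles. The fit used edgeR 4.0.16 in R 4.3.3 (filterByExpr with minimum count 10 and minimum total 15, TMM factors, robust quasi-likelihood fit, Benjamini-Hochberg threshold 0.05), which tested 5641 genes holding 93.5% to 94.3% of a library's counts. Totals ran from 313767 to 414781 per sample, and 3 counts correspond to 7.22 to 10.6 CPM. The common biological coefficient of variation was 19%. SE is the absolute log2 fold change over the square root of F. CPM are counts over the counts in tested genes times the TMM factor. Ensembl's WBcel235 annotation gave coding lengths and exons. For pdi-2 they came from another transcript entry of that gene with identical coordinates. Tested on simulated data with 62 tested genes per fold size, the fit recovered 4 at 1.5-fold, 23 at 2-fold and 54 at 4-fold, beside 6 false calls. Alternatives were DESeq2 1.42.0, library totals, other filters, a replicate block and leaving out each sample. Figures used matplotlib 3.10.9.

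The 8 genes and all lists were chosen with earlier results of these data known. Named were the 8 genes and, in each pathway list, up to 3 called genes, by smallest p, plus the tested gene of highest mean CPM. Also named were sqt-3, emb-9, let-2, the most abundant cuticle collagen and, for each enzyme gene, the 3 genes of at least 20 CPM with the closest profile. Other genes named, for their counts or calls, were chosen after their values were seen. Pharynx, intestine, sperm and neuron markers were also counted: of the tested ones 0 of 4, 5 of 7, 4 of 5 and 0 of 2 were lower, and 0, 1, 0 and 0 higher.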

Additional observations from a re-analysis of the deposited data

How the results depend on the processing

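Over the alternatives run for each of the 7 enzyme genes in the fit (10 for let-268 and bli-3, which the stricter filter left out, and 11 for the others), none of the 75 log2 fold changes turned positive. These refits share the same 6 libraries, and the genes were listed with their differences known, so the constant sign is no separate support. The eighth gene, dpy-31, with a ratio of 1.03, was not in the main fit, and its values under the alternatives are not among the 75. The 75 values describe how far the estimates moved. The log2 fold changes ranged from -1.91 to -1.61 for dpy-18, -0.97 to -0.43 for phy-2, -0.65 to -0.41 for pdi-2, -0.83 to -0.07 for let-268, -0.34 to -0.13 for bli-4, -0.66 to -0.03 for bli-3 and -0.72 to -0.19 for mlt-7. The values of let-268 and bli-3 nearest 0 were those without no_CHX replicate 2. The number of tested genes called stayed within 1.5 times 1419, between 984 and 1331 with a sample left out and 1079 with DESeq2. Of the other pathway genes 7 were called, 4 with library totals alone, 3 without a low-count filter, and 2 to 8 with a sample left out. With a replicate block 1225 genes and 4 pathway genes were called. Among the other named genes, calls were lost with library totals for hsp-3, sec-24.1, sec-23, skpo-2 and emb-9, without a filter for the first 4 of these, with DESeq2 for sec-23 and skpo-2, and with the block for sec-24.1, sec-23 and skpo-2. Same-numbered samples did not deviate together (correlations of -0.05, -0.03 and -0.01), so the numbers are not taken to pair the samples. Cuticle collagen counts per alpha subunit count stood in a ratio of 1.67 to 2.01 between the groups with a sample left out. Depth limits let-268, dpy-31, bli-3 and phy-2 most, with 4 to 34 counts per library.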
